A study of Mus musculus with 8 samples.

Results

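The enzymes that write and erase lysine marks on histones were examined in R1 mouse embryonic stem cells after transient knockdown of Mkrn1. The genes were taken by name from the platform annotation: every symbol that starts with Kdm, Kmt, Setd, Hdac, Sirt, Kat or Ehmt followed by a digit, plus Ezh1, Ezh2, Eed, Suz12 and Jarid2, with 1 gene on the Y chromosome left out. This gave 66 of 19937 measured genes. They comprise demethylases, methyltransferases with the Polycomb repressive complex 2 (PRC2), deacetylases with the sirtuins, and also 8 lysine acetyltransferases. A few carry the family name but are known for other substrates, among them Setd3, which methylates actin, and the mitochondrial sirtuins.

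All cells were of R1, a male line of 129X1 x 129S1 background derived from blastocysts. In the knockdown group (shMKRN1, 4 arrays) the cells carried pLKO.1 with a hairpin that targets MKRN1, an E3 ubiquitin ligase that binds mRNA. In the control group (shGFP, 4 arrays) the same plasmid carried a hairpin against GFP. Both groups were grown with LIF and serum, selected with puromycin for 4 days and collected 6 days after transfection, so each sample is a population of resistant cells with a transient plasmid. The arrays carry the numbers of their titles, 2, 4, 6 and 8 for shMKRN1 and 1, 3, 5 and 7 for shGFP. Nothing in the labels ties the arrays of a group to independent transfections, so the spread behind every p-value may be technical. A single hairpin sequence was used against MKRN1, and the groups differ by this hairpin and by the one against GFP. Effects of the hairpin sequences themselves cannot be told apart from the loss of Mkrn1. The sequence against MKRN1 is shown because it defines the knockdown group. The labels give it as follows.
shMKRN1 hairpin: gcgagatgttgcttatgcttt

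Lysine marks on the histone tails differ in meaning by position. Methylation of H3K4 is typical of active promoters and enhancers, that of H3K36 of transcribed gene bodies, and that of H3K9 and H3K27 of silent chromatin, while acetylation accompanies active genes. In embryonic stem cells PRC2 places H3K27 methylation on developmental genes, and many developmental promoters carry it together with the H3K4 mark of the MLL and SET1 enzymes. Of the class I deacetylases, HDAC1 and HDAC2 work inside the NuRD, Sin3 and CoREST complexes, and class III, the sirtuins, uses NAD as a cofactor.

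Mkrn1 itself was lower in each shMKRN1 array than in any shGFP array. The mean log2 level of the gene was 9.84 ± 0.036 in shMKRN1 and 10.44 ± 0.069 in shGFP (SD, n = 4 each; exact two-sided permutation p = 0.0286, the smallest possible with 70 assignments), which is 66.2% of the control level. The 12 stem cell markers all lay above the range of silent genes, defined here as the level below which 95% of 1190 olfactory and vomeronasal receptor genes lay (6.50), and their mean level ran from 11.51 to 11.58 in shMKRN1 and from 11.50 to 11.58 in shGFP. Of these 12, 1 passed the limma test: the pluripotency factor gene Nanog rose, with a mean of 12.55 ± 0.052 in shMKRN1 and 12.31 ± 0.045 in shGFP (SD, n = 4 each), a difference of 0.25 (limma adjusted p = 0.0256). Of 11 fibroblast markers, Col1a1 and Pdgfrb rose, Lum, Postn and S100a4 lay in the silent range, and the mean level ran from 7.27 to 7.47 in shMKRN1 and from 7.26 to 7.39 in shGFP. None of 10 primitive endoderm markers passed the limma test, and their mean level ran from 8.22 to 8.42 in shMKRN1 and from 8.24 to 8.46 in shGFP. The part of these markers in the results below was not tested. Arrays shMKRN1 8 and shGFP 7 stood apart from the others of their groups on the leading principal component (7.46 against -15.2 to -6.02, and 23.2 against -3.45 to 6.20). The count of calls and the differences of Kdm7a, Suz12, Kdm6a and Sirt3 are therefore given with and without them.

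The transcripts of these enzymes differed little between the groups. By limma, with p-values adjusted over all 19937 genes and a threshold of 0.05, 1 of 66 passed, Kdm7a, which was higher in shMKRN1, and none was lower. That is 1.52% of these genes, against 4.49% of all genes tested (3.66% higher and 0.838% lower). At an unadjusted limma p under 0.05, 16 passed, 12 higher and 4 lower, which is 24.2% against 19.5% of all genes. The groups of 4 arrays did not overlap for 17 of 66, 11 higher and 6 lower, which is 25.8% against 14.1% of all genes. Most of these enzymes (62 of 66) lay above the median level of all genes. Among those 62 the shares were 1.61% past the adjusted threshold, 25.8% at the unadjusted one and 27.4% without overlap, against 6.67%, 27.3% and 21.9% of all genes above that level. The median difference over the 66 genes was 0.02 on the log2 scale, against 0.01 over all genes. The shMKRN1 mean was the higher for 40 of 66 (60.6%, against 52.8% of all genes). That count was 34 after quantile normalization and 46 after median centring. Among the 62 enzyme genes above the median level, the shMKRN1 mean was the higher for 37, against 6321 of all 9968 genes above that level. The median differences of these sets were 0.017 and 0.041. The count of 1 was 0 without shMKRN1 2, 4, 6 or 8 and without shGFP 1 or 3, and 3 without shGFP 7 (Kdm7a, Sirt3 and Suz12). By limma with a mean-variance trend 9 of 66 passed, and the order of the shares turned (13.6%, against 7.76% of all genes).

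The confidence intervals, taken gene by gene, describe the size of the differences between these arrays. They rest on the spread among arrays, which may be technical, so they do not bound the effect of the knockdown. The 95% interval lay within 1.3-fold either way for 65 of 66 genes, within 1.2-fold for 47 and within 1.1-fold for 9. The farthest reach of any interval was that of Kdm7a, at 1.33-fold. All 66 fitted differences lay between -0.24 (Suz12) and 0.28 (Kdm7a) on the log2 scale. RMA values understate changes of dim genes, so the intervals hold on the scale of these arrays.

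**Figure D1:**
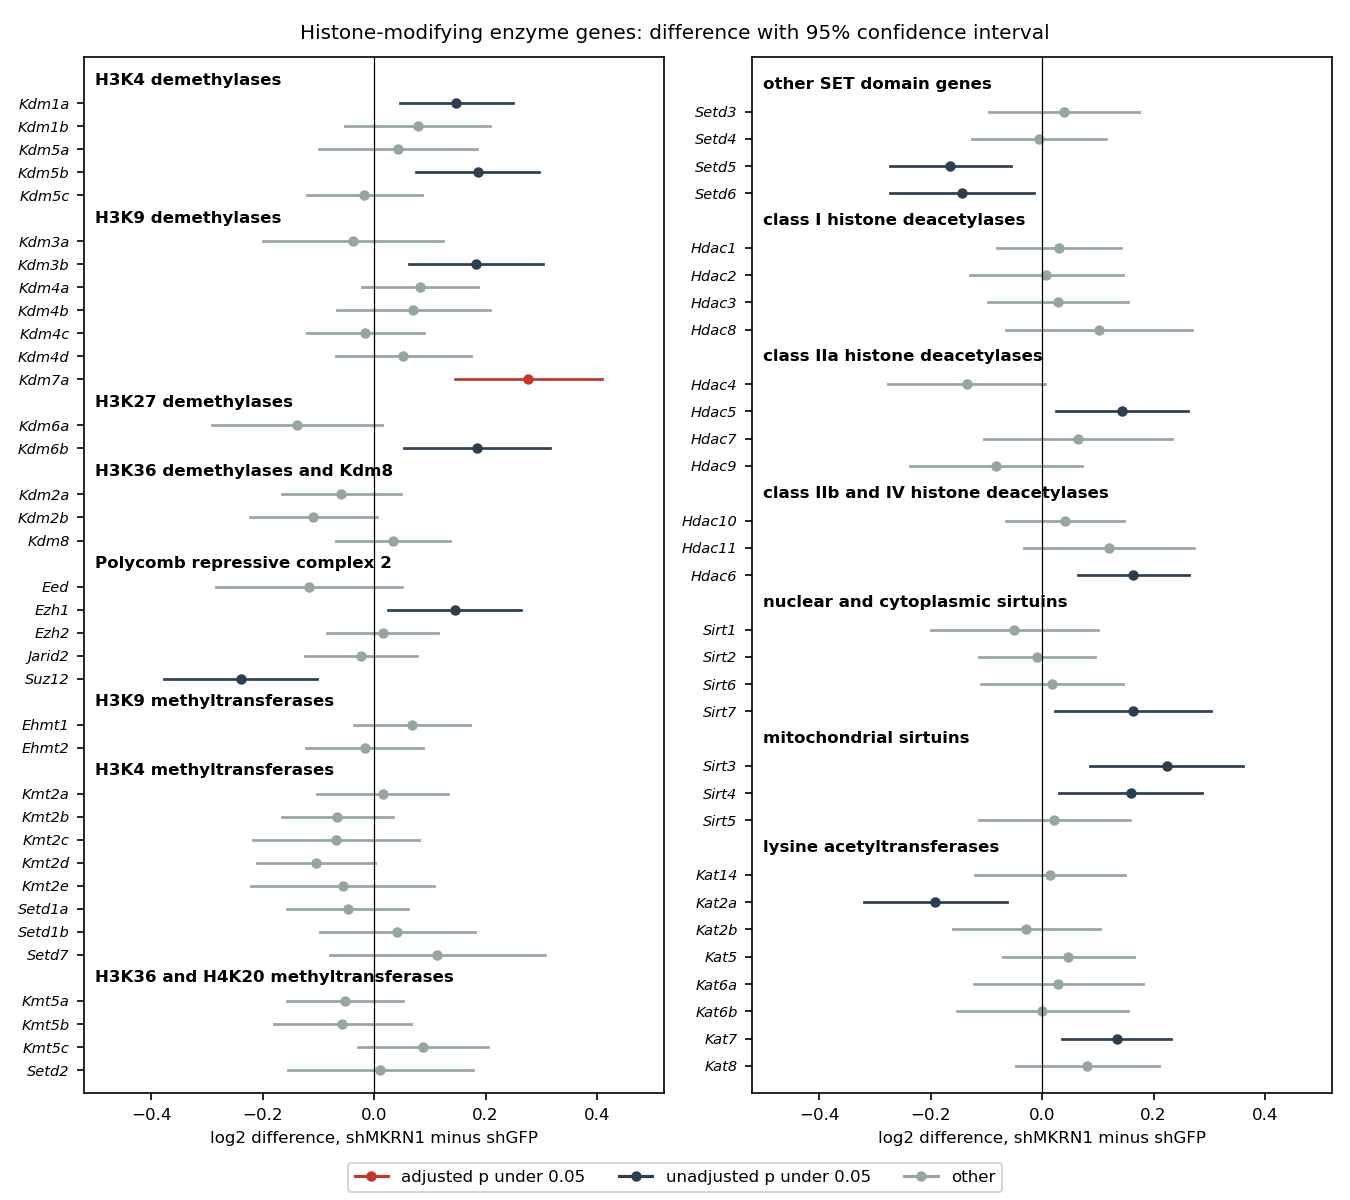
Difference in log2 level, shMKRN1 minus shGFP (x axis), for the 66 genes grouped by role (y axis), with the 95% confidence interval from limma (4 arrays a group). Kdm7a, at 0.28, is the single gene past the adjusted threshold, and 15 others have an unadjusted p under 0.05.

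Of 7 demethylases of H3K9, 1 rose (Kdm7a) and 6 did not pass the test (14.3% passed, against 4.49% of all genes). Kdm7a encodes a Jumonji demethylase that removes H3K9 and H3K27 dimethylation and binds trimethylated H3K4 through its PHD finger. Its log2 level was 9.49, 9.49, 9.51 and 9.57 in the shMKRN1 arrays, against 9.23, 9.28, 9.35 and 9.11 in the shGFP arrays. The groups did not overlap, the shMKRN1 values lay close together, and shGFP 7 was the lowest array. The difference was 0.28 (SE 0.059; limma adjusted p = 0.0296), a rise of 1.21-fold with a 95% interval of 1.11 to 1.33. A second probe set of the gene, not used for the call, read 8.07, 8.23, 8.24 and 8.07 in shMKRN1, against 8.01, 7.84, 7.93 and 7.79 in shGFP. Its groups did not overlap either, and its difference was 0.26 (SE 0.071). The call was close to the threshold: it was lost without shMKRN1 2, 4, 6 or 8 and without shGFP 1 or 3, at limma adjusted p-values of up to 0.0954, and it was kept without shGFP 5 or shGFP 7. Without both shMKRN1 8 and shGFP 7 the difference was 0.22 (limma adjusted p = 0.059), and with p-values adjusted over every probe set of the array the adjusted p was 0.0689.

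The promoters of Kdm7a and Suz12, the genes with the largest difference in either direction, are shown to place them on the genome. Sequences are from RefSeq on GRCm38.p6, from 250 bases before to 50 bases after the start of the gene, on the strand of the gene, for Kdm7a at chr6:39206724-39207023 (minus strand) and for Suz12 at chr11:79992856-79993155 (plus strand). Capitals mark the letters ACGTG, one form of the core of the hypoxia response element, searched on both strands. The form GCGTG was not searched, and it stands unmarked in both windows.
Kdm7a: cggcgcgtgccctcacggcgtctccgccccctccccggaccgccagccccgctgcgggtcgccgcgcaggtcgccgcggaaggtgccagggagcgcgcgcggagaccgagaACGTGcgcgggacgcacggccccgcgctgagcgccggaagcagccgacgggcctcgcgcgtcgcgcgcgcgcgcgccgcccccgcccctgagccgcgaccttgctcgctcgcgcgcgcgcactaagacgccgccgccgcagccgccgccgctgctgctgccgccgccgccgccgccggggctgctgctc
Suz12: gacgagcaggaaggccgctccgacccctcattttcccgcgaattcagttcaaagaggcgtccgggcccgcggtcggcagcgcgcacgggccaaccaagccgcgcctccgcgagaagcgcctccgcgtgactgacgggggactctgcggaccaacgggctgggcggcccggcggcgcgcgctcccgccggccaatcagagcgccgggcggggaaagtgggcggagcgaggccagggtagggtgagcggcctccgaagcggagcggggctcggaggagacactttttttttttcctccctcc

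Both windows are rich in CpG. The Kdm7a window holds 65 CpG dinucleotides and 1 match to ACGTG, and the Suz12 window 41 and no match to ACGTG. Over 76 promoter windows of 54 of the 66 genes the median was 23 CpG, against 7 over 32619 windows of all genes. A match to ACGTG stood in 25% of the windows of these genes, against 19.8% of all windows. A match describes the letters only and is not evidence of a bound site.

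Among the other H3K9 demethylases, Kdm3b, a Jumonji enzyme of H3K9 mono- and dimethylation, came nearest to the threshold. It read 10.54, 10.42, 10.44 and 10.45 in shMKRN1, against 10.20, 10.27, 10.36 and 10.29 in shGFP, so the groups did not overlap. The difference was 0.18 (SE 0.054; limma adjusted p = 0.0889). Kdm3a, Kdm4b and Kdm4c are among the known targets of hypoxia-inducible factors, and none of them passed. Their differences were -0.04 for Kdm3a, 0.07 for Kdm4b and -0.02 for Kdm4c, with intervals of -0.20 to 0.12, -0.07 to 0.21 and -0.12 to 0.09. A full list of such targets was not examined. Kdm4a, which acts on trimethylated H3K9 and H3K36, differed by 0.08 (SE 0.047). Kdm4d, a paralog known from the testis, lay in the silent range in both groups (6.36 in shMKRN1, 6.31 in shGFP).

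None of the 5 demethylases of H3K4 passed the adjusted limma test. An unadjusted limma p under 0.05 was reached by 2 (40%, against 19.5% of all genes), both with higher levels in shMKRN1. Kdm5b, which removes H3K4 trimethylation and is abundant in stem cells, read 11.41, 11.31, 11.41 and 11.39 in shMKRN1, against 11.14, 11.25, 11.20 and 11.20 in shGFP. The groups were apart, with a difference of 0.19 (SE 0.050; limma adjusted p = 0.0672). Kdm1a (LSD1), the flavin-dependent demethylase of the CoREST complex, read 11.16, 11.16, 11.17 and 11.21 in shMKRN1, against 10.99, 11.06, 11.06 and 11.02 in shGFP. The ranges were narrow and did not overlap, with a difference of 0.15 (SE 0.045; limma adjusted p = 0.103). Their relatives Kdm1b, Kdm5a and the X-linked Kdm5c differed by 0.08, 0.04 and -0.02, and their groups overlapped. By limma with a mean-variance trend, the adjusted p was 0.0108 for Kdm5b and 0.0199 for Kdm1a.

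The demethylases of H3K27 had differences of opposite sign, and the difference between them was not tested. Kdm6b (JMJD3), an inducible enzyme, read 9.48, 9.36, 9.37 and 9.44 in shMKRN1, against 9.35, 9.22, 9.19 and 9.15 in shGFP. The lowest shMKRN1 array lay just above the highest shGFP array, and the difference was 0.19 (SE 0.059; limma adjusted p = 0.112). Kdm6a (UTX), its X-linked relative in the MLL3 and MLL4 complexes, read 10.57, 10.61, 10.59 and 10.40 in shMKRN1, against 10.76, 10.70, 10.72 and 10.54 in shGFP. Here the groups overlapped through shGFP 7, and both arrays 8 and 7 were the lowest of their groups. The difference was -0.14 (SE 0.068; limma adjusted p = 0.306). Without shGFP 7 it was -0.18 (limma adjusted p = 0.138), and without both arrays -0.14 (limma adjusted p = 0.157). Of the H3K36 demethylases, Kdm2b, which recruits a variant Polycomb complex to unmethylated CpG islands, differed by -0.11 (SE 0.051; limma adjusted p = 0.279) with no overlap. Kdm2a differed by -0.06 and Kdm8, now known mainly as a hydroxylase and protease, by 0.03. None of the 5 genes passed, and Kdm6b alone had an unadjusted limma p under 0.05, which 19.5% of all genes reached. Groups did not overlap for Kdm6b and Kdm2b, nor for 14.1% of all genes.

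**Figure D2:**
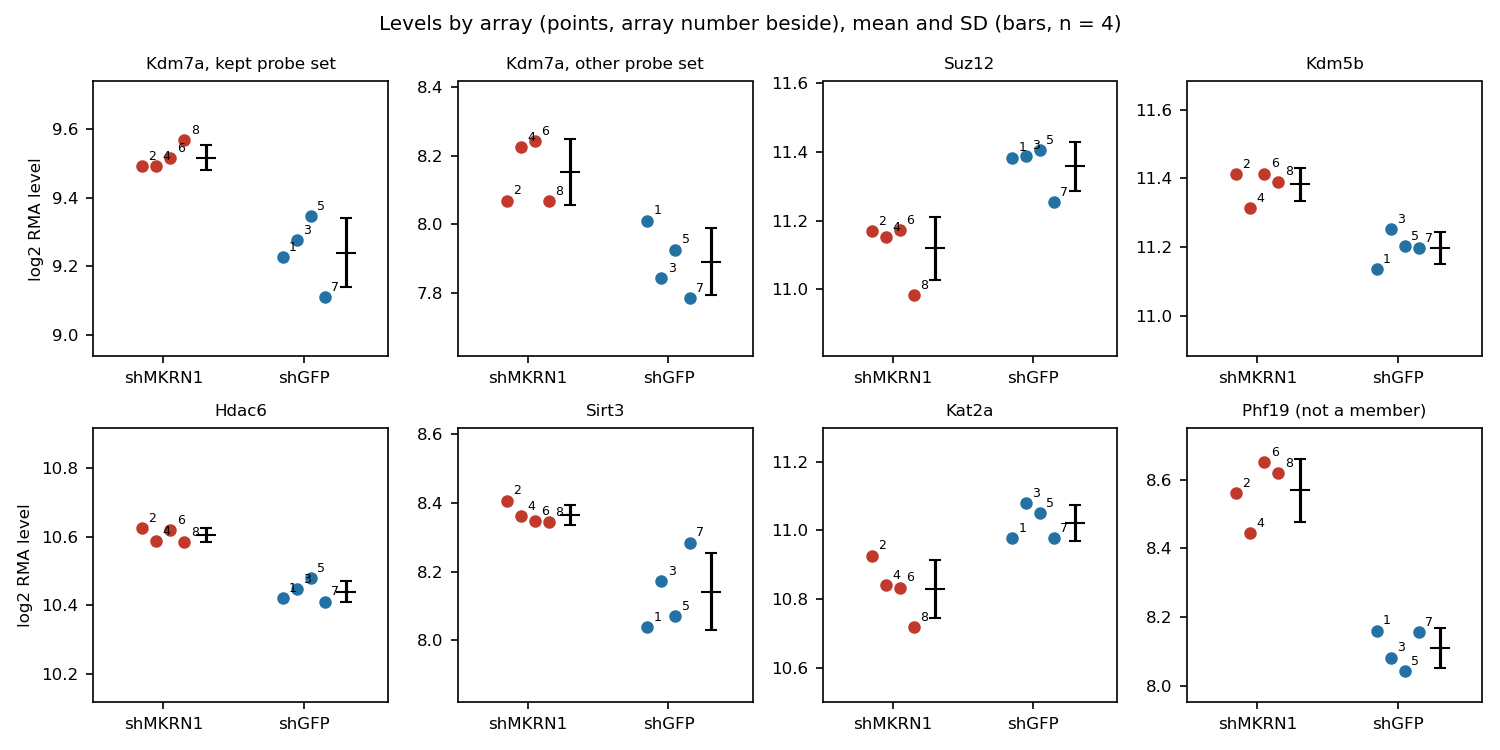
log2 level (y axis) in each array for Kdm7a by its 2 probe sets, Suz12, Kdm5b, Hdac6, Sirt3, Kat2a and the PRC2 accessory gene Phf19, with the mean and SD of 4 arrays beside the points. The shMKRN1 and shGFP arrays do not overlap in any panel. Within shMKRN1, array 8 is lowest for Suz12 and Kat2a and, by a small margin, for Hdac6, Sirt3 and the other Kdm7a probe set.

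None of the 5 PRC2 genes passed the limma test. Suz12, a core subunit required for the stability of the complex, had the largest lower level of all 66 genes. It read 11.17, 11.15, 11.17 and 10.98 in shMKRN1, against 11.38, 11.39, 11.41 and 11.25 in shGFP. The groups did not overlap, and within each group 3 arrays agreed closely while shMKRN1 8 and shGFP 7 lay below them. The difference was -0.24 (SE 0.062; limma adjusted p = 0.059), just outside the threshold. Without shMKRN1 8 and shGFP 7 it was -0.23 (limma adjusted p = 0.0377), and without shGFP 7 alone -0.27 (limma adjusted p = 0.0399). Without each of the other 7 arrays in turn it did not pass, and it was weakest without shGFP 3, at -0.19 (limma adjusted p = 0.16).

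The catalytic and other core subunits of PRC2 varied less. Ezh2, the main methyltransferase of dividing cells, read 12.20, 12.18, 12.19 and 12.18 in shMKRN1, against 12.14, 12.17, 12.22 and 12.15 in shGFP. The groups overlapped, and the difference of 0.02 had an interval of -0.08 to 0.12. Ezh1, its weaker paralog, read 9.22, 9.19, 9.25 and 9.18 in shMKRN1, against 9.12, 9.12, 9.06 and 8.96 in shGFP. The groups did not overlap, with a difference of 0.14 (SE 0.053; limma adjusted p = 0.166). Eed, which binds the trimethyl mark and activates the enzyme, differed by -0.12 (SE 0.075; limma adjusted p = 0.449), with array shMKRN1 8 lowest at 10.50. Jarid2, the substoichiometric cofactor that guides PRC2 in stem cells, differed by -0.02, with an interval of -0.12 to 0.08. Of these 5 genes 2 had an unadjusted limma p under 0.05 (40%, against 19.5% of all genes), Suz12 lower and Ezh1 higher.

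Of 9 other PRC2 subunits measured, 1 rose and none fell (11.1% passed, against 4.49% of all genes). At an unadjusted limma p under 0.05 there were 3, all higher (33.3%, against 19.5% of all genes). Phf19, a Polycomb-like protein that brings PRC2 to chromatin, read 8.56, 8.44, 8.65 and 8.62 in shMKRN1, against 8.16, 8.08, 8.04 and 8.16 in shGFP. The gap between the groups was wider than either group's range, and the difference was 0.46 (SE 0.060; limma adjusted p = 0.00387). The call was kept without each array in turn, at limma adjusted p-values of up to 0.0202. The histone-binding subunit gene Rbbp7 differed by 0.19 (SE 0.050; limma adjusted p = 0.0608), and Ezhip, an inhibitor of PRC2, by 0.27 (SE 0.096; limma adjusted p = 0.152) with overlapping groups. The other Polycomb-like genes Mtf2 and Phf1 differed by 0.09 and -0.01, and Aebp2 by 0.15 (limma adjusted p = 0.27).

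The methyltransferases of H3K4 showed no call in either direction. Among 8 genes 5 had a lower mean in shMKRN1 and 3 a higher one (37.5%, against 52.8% of all genes). The median difference was -0.05, and none had an unadjusted limma p under 0.05, which 19.5% of all genes reached. Kmt2d (MLL4), the main monomethyltransferase of enhancers, read 10.11, 10.06, 10.02 and 10.05 in shMKRN1, against 10.13, 10.21, 10.19 and 10.12 in shGFP. The groups were just apart, with a difference of -0.10 (SE 0.048; limma adjusted p = 0.266), and its second probe set differed by -0.11. Kmt2b, the enzyme of bivalent promoters, read 10.10, 10.01, 10.06 and 10.05 in shMKRN1 and 10.12 in every shGFP array. Its difference was -0.07 (SE 0.045), also with no overlap. These 2 of 8 without overlap are 25%, against 14.1% of all genes and 21.9% of genes above the median level. The other 6 (Kmt2a, Kmt2c, Kmt2e, Setd1a, Setd1b and Setd7) lay between -0.07 and 0.11 with overlapping groups.

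The methyltransferases of H3K9, H3K36 and H4K20 varied as little. Ehmt1 and Ehmt2 (GLP and G9a), which form the heterodimer that places H3K9 dimethylation, differed by 0.07 and -0.02, with intervals of -0.04 to 0.17 and -0.12 to 0.09. Setd2, which trimethylates H3K36, differed by 0.01, and the H4K20 enzymes Kmt5a, Kmt5b and Kmt5c by -0.05, -0.06 and 0.09. None of these 6 had an unadjusted limma p under 0.05. Of 4 other SET domain genes none passed. An unadjusted limma p under 0.05 was reached by 2 (50%, against 19.5% of all genes), both lower in shMKRN1. Setd5, a chromatin regulator required in mouse development, read 11.56, 11.55, 11.54 and 11.51 in shMKRN1, against 11.74, 11.74, 11.72 and 11.62 in shGFP. The groups did not overlap, with a difference of -0.16 (SE 0.049; limma adjusted p = 0.0931). Setd6, which methylates the NF-kappaB subunit RelA, differed by -0.14 (SE 0.058; limma adjusted p = 0.201), with overlap. Setd3 was read by 2 probe sets that differed: the brighter gave 0.04 (SE 0.061) and the other, 8.87, 8.90, 8.95 and 8.79 in shMKRN1 against 8.58, 8.59, 8.77 and 8.65 in shGFP, gave 0.23 (SE 0.062), which was not past the threshold over every probe set (limma adjusted p = 0.12).

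Of 11 zinc-dependent deacetylases none passed the adjusted limma test. An unadjusted limma p under 0.05, reached by 19.5% of all genes, was reached by 2 of the 11, both higher in shMKRN1. The class I enzymes Hdac1, Hdac2 and Hdac3 differed by 0.03, 0.01 and 0.03, with intervals of -0.08 to 0.14, -0.13 to 0.15 and -0.10 to 0.15. Hdac8, the X-linked member of class I that deacetylates cohesin, differed by 0.10 (SE 0.074). A second probe set assigned to Hdac1 gave -0.10 (SE 0.078), opposite in sign to the first.

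Hdac6, a cytoplasmic deacetylase of tubulin that also binds ubiquitin, read 10.62, 10.59, 10.62 and 10.59 in shMKRN1, against 10.42, 10.45, 10.48 and 10.41 in shGFP. The values of each group lay close together and did not overlap, and the difference was 0.16 (SE 0.045; limma adjusted p = 0.0708, and 0.0161 with a mean-variance trend). Hdac5, a class IIa protein that shuttles between nucleus and cytoplasm, read 9.02, 8.90, 8.86 and 8.87 in shMKRN1, against 8.75, 8.73, 8.80 and 8.80 in shGFP. Its groups were apart as well, with array shMKRN1 2 highest and a difference of 0.14 (SE 0.053; limma adjusted p = 0.166). Its class mate Hdac4 had the opposite sign, -0.14 (SE 0.063; limma adjusted p = 0.277), with overlap, and the difference between them was not tested. A second probe set of Hdac4, at a similar level, gave -0.01 (SE 0.048). Hdac7 differed by 0.06, Hdac10, a polyamine deacetylase, by 0.04 and Hdac11, a class IV enzyme that removes fatty acyl groups, by 0.12 (SE 0.069). Hdac9 lay in the silent range (6.34 in shMKRN1, 6.42 in shGFP), so a difference in it could not be assessed.

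**Figure D3:**
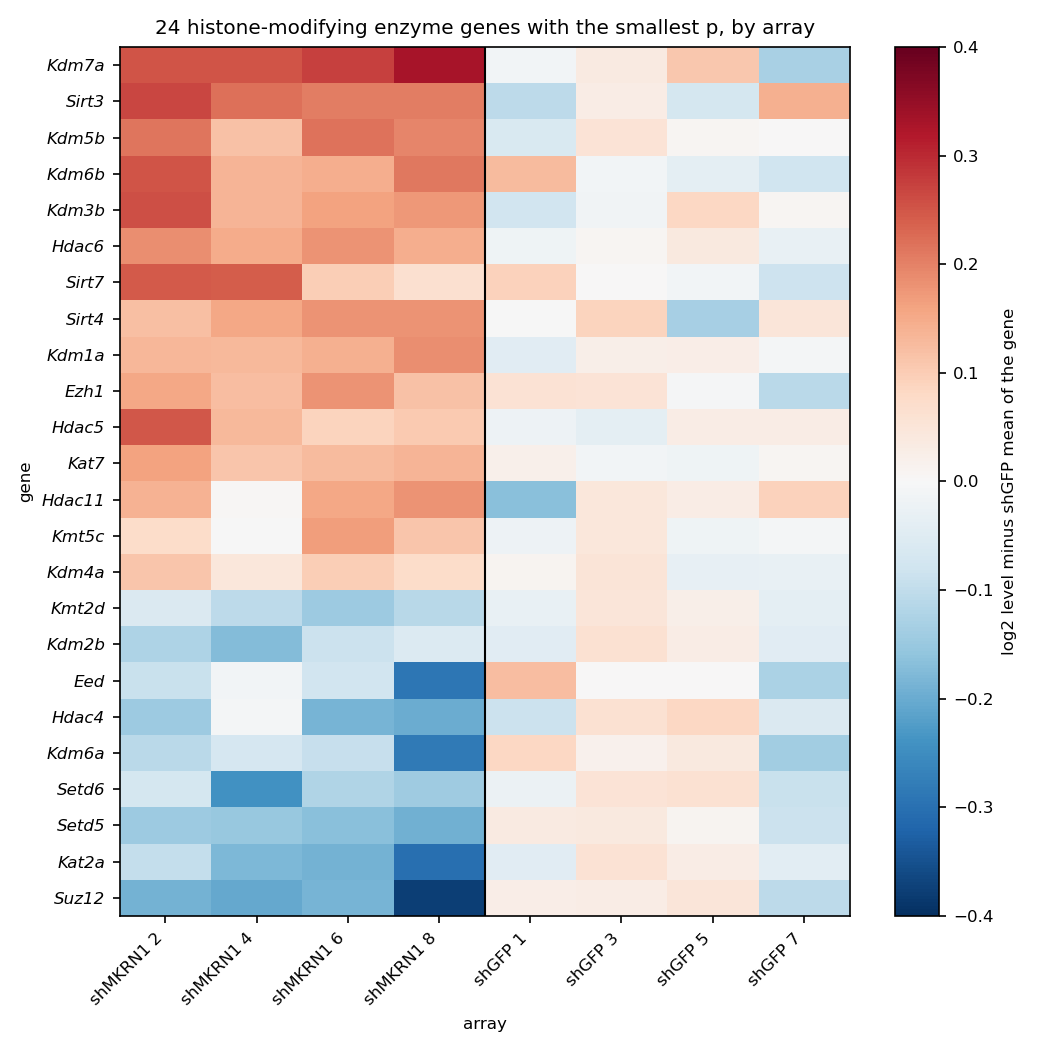
log2 level of each array (columns) minus the shGFP mean of the gene, for the 24 of 66 genes with the smallest p (rows, ordered by difference). The 15 genes at the top are higher on average in shMKRN1 and the 9 at the bottom lower, and arrays shMKRN1 8 and shGFP 7 are low together for Suz12, Kdm6a and Eed.

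Among the sirtuins the largest difference was that of Sirt3. The gene, for the main deacetylase of mitochondrial enzymes, read 8.41, 8.36, 8.35 and 8.34 in shMKRN1, against 8.04, 8.17, 8.07 and 8.28 in shGFP. The groups did not overlap, and shGFP 7 was the nearest to the shMKRN1 arrays. The difference was 0.22 (SE 0.062; limma adjusted p = 0.073), and it was 0.27 (limma adjusted p = 0.0266) without shGFP 7 and 0.28 (limma adjusted p = 0.0358) without shGFP 7 and shMKRN1 8. Without each of the other 7 arrays in turn it did not pass, with a limma adjusted p of up to 0.181 (without shMKRN1 2). Sirt4, a mitochondrial lipoamidase and ADP-ribosyltransferase, read 7.89, 7.92, 7.95 and 7.95 in shMKRN1, against 7.76, 7.86, 7.63 and 7.82 in shGFP. Those groups were just apart, with a difference of 0.16 (SE 0.058; limma adjusted p = 0.159). Sirt5, the desuccinylase, differed by 0.02. Of the sirtuins outside mitochondria, Sirt7, a nucleolar enzyme, differed by 0.16 (SE 0.063; limma adjusted p = 0.184) with overlap, and Sirt1, Sirt2 and Sirt6 by -0.05, -0.01 and 0.02. None of the 7 sirtuins passed, and Sirt3, Sirt4 and Sirt7 had an unadjusted limma p under 0.05, which 19.5% of all genes reached.

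Of 8 lysine acetyltransferases none passed, and 2 had an unadjusted limma p under 0.05 (25%, against 19.5% of all genes), in opposite directions. Kat2a (GCN5), the catalytic subunit of SAGA and ATAC, read 10.93, 10.84, 10.83 and 10.72 in shMKRN1, against 10.98, 11.08, 11.05 and 10.98 in shGFP. The groups did not overlap, shMKRN1 8 was the lowest array, and the difference was -0.19 (SE 0.058; limma adjusted p = 0.0944). Its paralog Kat2b differed by -0.03. Kat7 (HBO1), which acetylates H3K14 and histone H4, read 11.88, 11.83, 11.85 and 11.86 in shMKRN1, against 11.74, 11.71, 11.70 and 11.73 in shGFP. Both groups were tight, with a difference of 0.13 (SE 0.044; limma adjusted p = 0.12). Kat5 (TIP60), Kat6a, Kat6b, Kat8 (MOF) and Kat14 lay between 0.00 and 0.08.

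The partners of these enzymes gave a like picture. Of 132 genes of the same complexes, or of enzymes for the same marks outside the naming rule, 2 passed the limma test, both higher in shMKRN1 (1.52%, against 4.49% of all genes), with 24 higher and 8 lower at an unadjusted p under 0.05 (24.2%, against 19.5% of all genes). Besides Phf19 this was Chd3, a remodelling ATPase of NuRD, with a difference of 0.25 (SE 0.059; limma adjusted p = 0.0438). That call was lost without each array in turn, at limma adjusted p-values of 0.0648 to 0.114. The median difference over the 132 genes was 0.02. None of 13 COMPASS and MLL subunits, 8 CoREST subunits, 12 Sin3 subunits, 3 NCoR and SMRT subunits, 18 SAGA and ATAC subunits or 30 subunits of the TIP60, MSL, NSL, HBO1 and MOZ complexes passed, with 3, 4, 1, 0, 5 and 7 at an unadjusted limma p under 0.05. Nor did any of 19 writers or 10 erasers outside the naming rule, with 4 and 3 at that level. The acetyltransferase gene Ep300 differed by -0.17 (SE 0.049; limma adjusted p = 0.0819), the ATAC subunit gene Tada2a by 0.20 (limma adjusted p = 0.0506) and the SAGA deubiquitinase gene Usp22 by 0.19 (limma adjusted p = 0.0549).

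**Figure D4:**
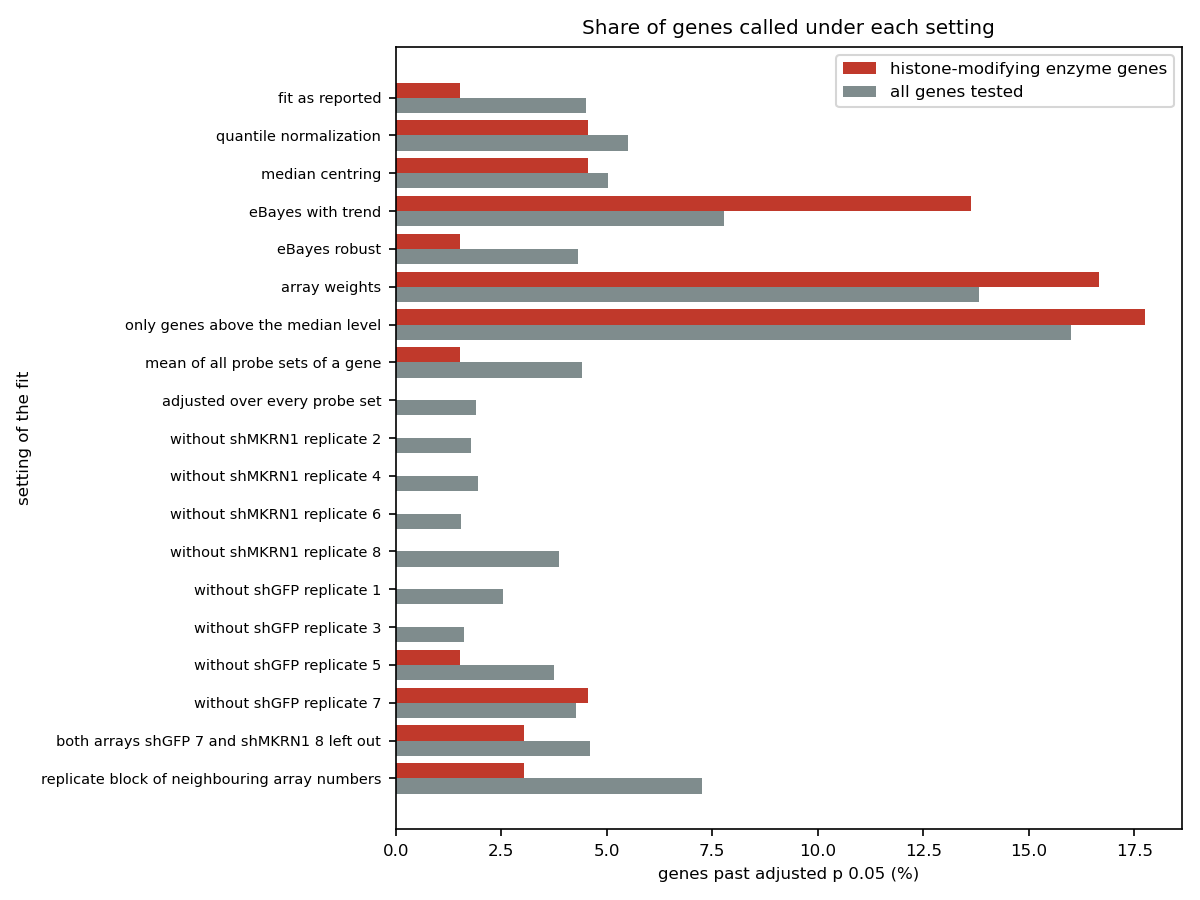
Percent of genes past an adjusted p of 0.05 (x axis) under the fit as reported and each alternative (y axis), for the histone-modifying enzyme genes and for all genes tested. The bars of the enzymes run from 0 to 17.7%, and those of all genes from 1.55 to 16%.

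The share of calls changed with the setting of the fit, both among these genes and among all genes. It was lower among these genes than among all genes as reported (1.52% against 4.49%). With a mean-variance trend, array weights or only genes above the median level it was higher. It was also slightly higher without shGFP 7 (4.55%, against 4.27% of all genes). After quantile normalization and median centring 3 of 66 passed each time (4.55%, against 5.5% and 5.02% of all genes). With a mean-variance trend 9 of 66 passed (13.6%, against 7.76% of all genes), with array weights 11 (16.7%, against 13.8%) and with only genes above the median level 11 of 62 (17.7%, against 16%). Under the trend 6 were higher (Hdac6, Kat7, Kdm1a, Kdm3b, Kdm5b and Kdm7a) and 3 lower (Kat2a, Setd5 and Suz12). The sign of the difference was the other way in at least 1 of 18 alternatives for 21 of the 66 genes.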

How the data were processed

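Per the submitters' processing notes, the authors made the deposited log2 values with RMA (version not given in the sources used here), which subtracts background, normalizes arrays to each other and summarises probe sets. A change common to most genes is therefore not visible. Array medians ran from 7.14 to 7.24. Of 34760 probe sets, 21640 had 1 symbol in the platform annotation; the probe set with the highest mean was kept per symbol. Of the 66 genes, 8 had 2 probe sets, of opposite sign for Eed, Hdac1 and Setd2. All 66 matched RefSeq (GRCm38.p6) by Entrez number.

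Differences were fitted with limma 3.58.1 in R 4.3.3 (lmFit, eBayes; 6 residual and 4 prior degrees of freedom), two-sided, with Benjamini-Hochberg adjustment over 19937 genes, no filter and no covariate; the script was tested on simulated data. Named were the genes that passed, then those with the smallest p up to 24, and up to 4 passing genes per partner list. The number of arrays limits the precision. Genes and lists were chosen with earlier results of these data known. Alternatives were another scaling, variance model, array weights, level filter, probe set rule or adjustment, a block of neighbouring array numbers, and leaving out arrays.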

Additional observations from a re-analysis of the deposited data

Results flagged for a closer look

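In 4 of 138 groups of 4 arrays examined, 1 array lay far from the other 3 by Dixon's test at the 95% level, fewer than the 1 in 20 that chance flags. Suz12 accounted for 2 of them: shMKRN1 8 read 10.98, below the other shMKRN1 arrays (11.15 to 11.17), and shGFP 7 read 11.25, below the other shGFP arrays (11.38 to 11.41). These are the arrays that stood apart on the leading principal component. For Hdac10, shMKRN1 8 read 7.81, above the other shMKRN1 arrays (7.73 to 7.74). For Hdac1, shGFP 5 read 12.19, above the other shGFP arrays (12.07 to 12.09).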

How the results depend on the processing

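The fall of Mkrn1 kept its call under all 18 alternatives (-0.64 to -0.57). The count of enzyme genes past limma's adjusted threshold, 1 as reported, was 3 after quantile normalization (Kdm7a higher, Kat2a and Suz12 lower), 3 after median centring (Kdm5b, Kdm7a and Sirt3 higher), 9 with a mean-variance trend, 11 with array weights, 11 with genes above the median level and 0 when adjusted over every probe set (16 at an unadjusted p under 0.05). Leaving out 1 array gave 0 to 3: 0 without shMKRN1 2, 4, 6 or 8 or shGFP 1 or 3 (13 to 17 at an unadjusted p under 0.05), 1 without shGFP 5 and 3 without shGFP 7 (Kdm7a, Sirt3 and Suz12). Leaving out both shGFP 7 and shMKRN1 8, chosen after seeing the data, gave 2 (Sirt3 and Suz12). Over all genes, 896 passed as reported, 1548 with the trend, 2757 with array weights, 1595 with genes above the median level, 378 over every probe set and 309 to 852 without 1 array (lowest for shMKRN1 6 at 309, then 324 with shGFP 3 left out, 353 and 387 with shMKRN1 2 or 4 left out and 505 with shGFP 1 left out). Of the partner genes, 2 passed as reported, 6 after quantile normalization, 13 with the trend, 22 with array weights, 16 with genes above the median level, 1 over every probe set and 1 to 3 without 1 array (1 without shMKRN1 2, 4 or 6 or shGFP 1 or 3). The cause of these shifts was not tested. The split of all calls was 729 higher and 167 lower as reported, 806 and 290 after quantile normalization, and 875 and 125 after median centring. The groups share no array number and the labels state no pairing. A replicate block of neighbouring array numbers (1 with 2, and so on to 7 with 8), chosen after seeing the data, gave 2 enzyme genes (Kdm7a, and Suz12 at a limma adjusted p of 0.0254), 2 partner genes and 1446 of all genes, 870 of them called as reported too. Deviations from the group means correlated at 0.13, -0.05, 0.26 and 0.64 within the 4 neighbouring pairs. Between arrays that were not neighbours the correlations ran from -0.53 to 0.41. Among the neighbouring pairs, shMKRN1 8 and shGFP 7 alone were each other's best match. These values do not settle whether neighbours were prepared together. Because the labels state no pairing, the fit as reported did not take neighbouring numbers as pairs.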

Other observations

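The position of the enzyme genes was uneven, a pattern chosen after the values were seen and described without a test. All 7 of them on chromosome 11 (Ezh1, Hdac5, Kat2a, Kat7, Kdm6b, Sirt7 and Suz12) had an unadjusted limma p under 0.05, 5 higher and 2 lower in shMKRN1, against 9 of 59 on other chromosomes. None of the 7 passed the adjusted threshold. For 6 of the 7 the groups did not overlap. Of all 1563 genes measured on chromosome 11, 22.7% had an unadjusted p under 0.05 and 18% had groups that did not overlap, and their median difference was 0.01.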
